A study of Mus musculus with 2 samples.

Results

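The interferon-stimulated genes described here are 44 named genes, found by their symbols in the 2 gene tables of a study of Treg cells, which hold 20938 genes each. All 44 were present, and all were above 0 in both libraries, so no member was lost to a filter on low values. The list was divided by what each gene is known to do into 24 antiviral genes weighted towards type I interferon, 3 nucleic acid sensors, 7 regulators and 10 GTPases weighted towards interferon-gamma.

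The study asked what the m6A writer subunit METTL14 does in regulatory T cells after an islet transplant. Treg cells were taken from the spleen on day 7 after BALB/c islets were placed in diabetic recipients on a C57BL/6J background, and the RNA-seq mice received no tolerance-inducing antibodies. The Ctrl library came from littermate controls, labelled wild type and described in the methods as carrying floxed Mettl14, and the cKO library from Foxp3-Mettl14f/+ cKO mice, in which Cre driven by the Foxp3 promoter deletes Mettl14 from a single allele. The sample label of the cKO library reads Foxp3 knockdown, and the genotype of the paper is used here. Cells were purified with magnetic beads for CD4 and CD25, and the paper reports a high purity by flow cytometry. Streptozotocin was the agent that made all recipients diabetic. Neither the age of the mice nor the number pooled per library is given in the sources used here. Each genotype has 1 library, so no difference below has a replicate check and no p-value is given. Intervals are 95% intervals of counting error alone, since they are computed from the reads of 1 library per genotype. Without molecular barcodes several reads can stem from the same molecule, so even as counting intervals they can be too narrow.

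Interferons are cytokines that warn cells of infection and activate immune cells. Type I interferons signal through a receptor made of IFNAR subunits to JAK1 and TYK2, and a complex that holds STAT2 and IRF9 then binds a DNA element called the ISRE. Interferon-gamma, made by T and NK cells, signals through IFNGR subunits to JAK1 and JAK2 and acts through a different element called GAS. Many target genes answer to both, so the division into antiviral genes and GTPases is one of weight and not of kind. The guanylate-binding proteins (Gbp) and the effector proteins of the immunity-related GTPases (Irg) attack the vacuoles of intracellular microbes. The Irg members here are Iigp1, Tgtp1 and Ifi47 and the regulatory genes Irgm1, Irgm2 and Igtp.

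To show the elements in the members themselves, the promoters of 10 of them are printed as the 160 bases before the annotated start. They were picked after the values were seen, to set antiviral genes with higher and lower levels (Rsad2, Ifit3, Oas1a, Isg15, Isg20) beside GTPases of both families. The sequences are those of RefSeq on GRCm38.p6, written 5' to 3' along the gene, and capitals mark every match to the ISRE core (GAAANNGAAA or, on the other strand, TTTCNNTTTC) or to the GAS core (TTCNNNGAA, the same on both strands). Overlapping matches run together as a single block of capitals.
Rsad2, chr12:26456453-26456612, minus strand: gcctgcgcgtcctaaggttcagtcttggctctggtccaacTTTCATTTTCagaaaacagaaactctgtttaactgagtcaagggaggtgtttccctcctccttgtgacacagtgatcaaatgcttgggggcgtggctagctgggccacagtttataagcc
Ifit3, chr19:34583369-34583528, plus strand: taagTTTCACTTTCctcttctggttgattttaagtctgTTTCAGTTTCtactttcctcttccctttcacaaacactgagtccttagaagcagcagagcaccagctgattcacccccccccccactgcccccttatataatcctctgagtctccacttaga
Isg15, chr4:156200819-156200978, minus strand: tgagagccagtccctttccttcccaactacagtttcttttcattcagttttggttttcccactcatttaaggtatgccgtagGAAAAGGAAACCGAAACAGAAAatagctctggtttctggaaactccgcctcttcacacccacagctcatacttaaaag
Oas1a, chr5:120907526-120907685, minus strand: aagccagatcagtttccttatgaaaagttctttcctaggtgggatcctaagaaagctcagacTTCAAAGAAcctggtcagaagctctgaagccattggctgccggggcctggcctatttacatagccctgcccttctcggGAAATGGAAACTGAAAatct
Isg20, chr7:78913264-78913423, plus strand: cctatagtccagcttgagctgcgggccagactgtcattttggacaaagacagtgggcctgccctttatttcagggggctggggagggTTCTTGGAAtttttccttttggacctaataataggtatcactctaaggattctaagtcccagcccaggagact
Gbp2, chr3:142620503-142620662, plus strand: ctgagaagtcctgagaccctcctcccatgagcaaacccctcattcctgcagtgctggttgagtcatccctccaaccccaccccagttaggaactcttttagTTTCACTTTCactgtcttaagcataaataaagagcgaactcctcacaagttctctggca
Irgm1, chr11:48871421-48871580, minus strand: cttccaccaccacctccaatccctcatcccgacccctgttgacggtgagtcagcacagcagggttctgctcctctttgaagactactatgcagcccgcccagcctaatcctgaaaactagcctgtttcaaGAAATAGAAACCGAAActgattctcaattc
Igtp, chr11:58199396-58199555, plus strand: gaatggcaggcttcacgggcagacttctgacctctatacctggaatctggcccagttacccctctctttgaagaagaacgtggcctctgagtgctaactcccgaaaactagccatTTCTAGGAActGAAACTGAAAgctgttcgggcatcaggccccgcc
Irgm2, chr11:58214817-58214976, plus strand: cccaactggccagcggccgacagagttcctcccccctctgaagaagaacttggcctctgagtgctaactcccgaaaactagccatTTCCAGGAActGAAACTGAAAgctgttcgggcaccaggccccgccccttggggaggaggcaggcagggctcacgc
Tgtp1, chr11:48992247-48992406, minus strand: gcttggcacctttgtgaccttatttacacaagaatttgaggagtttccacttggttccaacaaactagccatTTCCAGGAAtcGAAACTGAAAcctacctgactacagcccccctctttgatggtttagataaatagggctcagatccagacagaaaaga

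RefSeq promoter windows, from 250 bases before to 50 after each start, were held for 32 of the 44 members. Oas2, Mx1, Mx2, Rtp4, Ifi27l2a, Dhx58, Zbp1, Usp18, Parp9, Parp14, Gbp4 and Iigp1 were not among them. An ISRE core was found in 17 of the 32 genes and in 43.9% of their 41 windows, against 3.44% of all 32851 windows in the table. A GAS core was found in 13 of the 32 genes and in 31.7% of their windows, against 8.30% of all windows. Of the GTPases, 7 of 8 with a window had an ISRE core, and of the antiviral genes 9 of 19 had it. Isg20, printed from the first of its 3 starts, had a GAS core and no ISRE core in these windows.

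Igtp, Irgm2 and Tgtp1 had both cores side by side in the same order. Their GAS core began 11 bases ahead of the ISRE core, at 45 and 34 bases before the start in Igtp, 75 and 64 in Irgm2, and 88 and 77 in Tgtp1. This spacing was noticed in the members and then counted in the whole table, where it occurred in 0.0152% of windows. These windows belonged to 5 genes, namely Igtp, Irgm2, Tgtp1, its near copy Tgtp2 and Gm12185, which shares 5.64% of the transcript words of 50 bases of Tgtp1. A match to these letters is a description of the sequence and not evidence of binding.

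**Figure D1:**
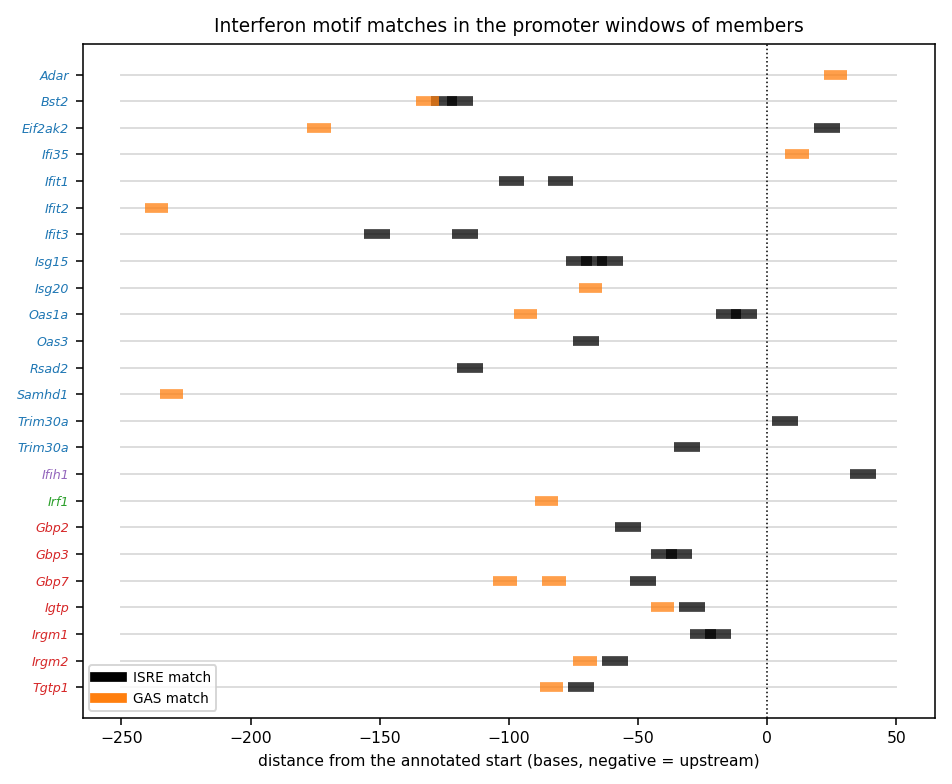
Position of ISRE cores (black) and GAS cores (orange) in the promoter windows of the members that hold either, on a horizontal axis of bases from the annotated start, with gene names coloured as antiviral (blue), sensor (purple), regulator (green) or GTPase (red). Igtp, Irgm2 and Tgtp1 show an orange bar directly followed by a black bar, and Trim30a appears on 2 lines because matches lie at 2 of its starts.

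The question put to these genes was whether they differed between cKO and Ctrl Treg cells, and whether the antiviral genes and the GTPases moved alike. Levels are the deposited values, in which the reads of a gene have been scaled by a factor common to its library. A change is the log2 ratio of the cKO to the Ctrl level after 1 was added to each. A gene is called higher or lower when it differs by at least 1.5-fold, which is 0.58 on the log2 scale. The recovered reads summed to 20239325 in the Ctrl library and 18327535 in the cKO library, and no member had fewer than 83 reads in a library.

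Mettl14, the targeted gene, had 948 reads in the Ctrl library and 652 in the cKO library and a change of -0.31 (-0.45 to -0.16), or 0.05 when the T cell core genes described next were held level. Foxp3, which defines Treg cells and is named as knocked down in the sample label, had 1547 and 1361 reads. Its change was 0.05 (-0.06 to 0.15), or 0.40 with the T cell core genes held level, so its transcript was not lower in the library so labelled. The paper reports lower FOXP3 protein by western blot in Treg cells of these cKO mice, and protein was not measured here. Markers of other cell types also differed between the libraries. The 10 B cell markers, such as Pax5, were all called higher, with a median of 2.47 and a summed level of 7484 in the Ctrl library and 41722 in the cKO library. Of the 10 macrophage and monocyte markers 9 were called higher, with a median of 2.12 and summed levels of 9105 and 19356. Summed levels were 2869 and 5608 for the 8 plasmacytoid dendritic cell markers, which include Bst2, and 6271 and 12118 for the 10 CD8 T and NK cell markers. These sums lean on a few genes. The first list had a median change of 0.80, from -0.01 for Bst2 to 2.08 for Spib, whose level went from 534 to 2269. The second had a median of 0.65, from 0.18 for Prf1 to 2.25 for Cd8a and 2.46 for Cd8b1. The granulocyte markers summed to 231170 and 320506 and the erythroid markers to 29590 and 17226, and no marker of these lists was at 0. Both lists were mixed. The granulocyte markers had a median of 0.45 and ranged from -1.03 (Mpo) to 1.01 (Csf3r). The erythroid markers had a median of -1.13 and ranged from -1.56 (Klf1) to 0.44 (Hba-a2). In contrast, the 16 genes of the T cell core (among them Cd3d, Cd3e and Cd3g) summed to 63972 and 50307, with a median change of -0.35 and a range of -0.66 to 0.08. Both sums lay below those of the granulocyte markers. Of these, S100a9 alone had levels of 74422 and 102041, against 8098 and 5297 for the T cell core gene Cd4. How these RNA values relate to the reported purity was not tested. The 10 Treg markers, Foxp3 among them, summed to 9195 and 10007 with a median of 0.20, and Il2ra (0.68) and Lrrc32 (1.35) were called higher and Tnfrsf4 (-0.68) lower. The part of these other cells in the levels of the interferon-stimulated genes was not tested, and in bulk libraries fewer cells of a type and less RNA per cell cannot be told apart.

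Of the 44 members, 6 were called higher in the cKO library, namely Oas2, Rsad2, Ifit3, Mx1, Dhx58 and Oasl2, and 1 was called lower, Isg20. That is 13.6% and 2.27% of the members, whereas 17.2% of all 16659 genes tested were higher and 24.2% were lower. Because calls are more frequent among genes with few reads, the shares were also taken over the 10709 genes whose mean level lay within that of the members, a range chosen after the values were seen, and there 12.1% were higher and 8.96% lower. At 2-fold, 1 member (Oas2) was higher and 0 were lower, against 10.3% and 18.1% of all genes tested. At 1.5-fold the share of members called higher was close to that of genes of like level, and the share called lower was smaller. The median log2 fold change of the members was 0.08, against -0.04 for all genes tested and 0.02 for genes in their level range. The counting interval lay above 0 for 20 members, below 0 for 11 and included 0 for 13.

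These values depend on how the libraries are scaled. When the libraries were instead anchored on the T cell core, so that its median change became 0 (the T cell-anchored scaling), 16 members were called higher and 0 lower, against 30.9% higher and 18.8% lower over all genes, and 13 members changed sign. The median of all genes moved to 0.31 and that of the members to 0.43. Scaling by TMM turned the sign of 1 member, Xaf1, and the median of ratios of none.

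**Figure D2:**
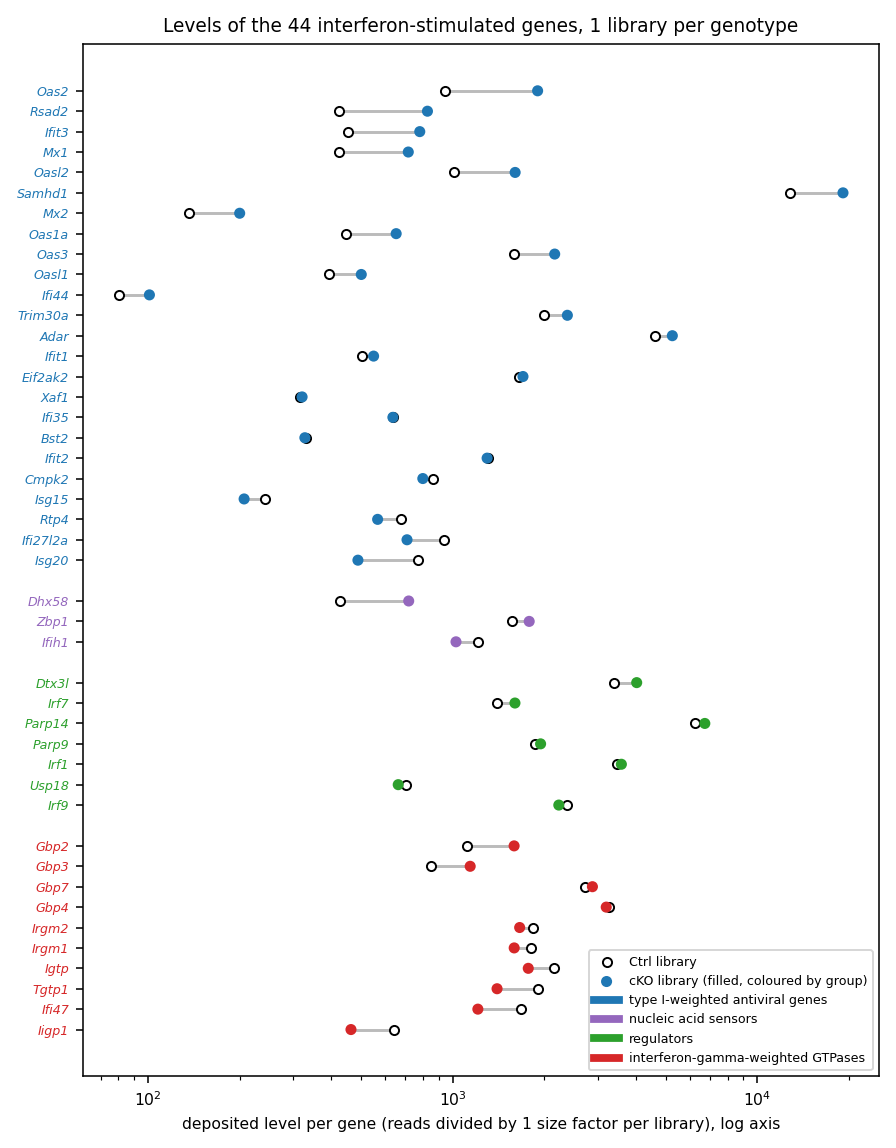
Deposited level of each member on a log axis, with the Ctrl library as an open point, the cKO library as a filled point and a line joining them, grouped by role and ordered by change. The filled points of Oas2, Rsad2, Ifit3, Mx1, Oasl2 and Dhx58 lie farthest to the right of the open points, and those of Isg20 and the Irg GTPases lie to the left on this deposited scale, 3 of the Irg GTPases only on it and not under the T cell-anchored scaling.

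The 24 antiviral genes had a median log2 fold change of 0.22 and ranged from -0.65 to 1.01. Of these 5 were called higher and 1 lower, against 17.2% and 24.2% of all genes tested. Among genes in the level range of the members the shares were 12.1% and 8.96%. The counting interval lay above 0 for 12 antiviral genes, below 0 for 3 and included 0 for 9. Their summed level was 33563 in the Ctrl library and 43766 in the cKO library, of which Samhd1 alone held 12822 and 19083. The antiviral genes spread to both sides of 0 on the deposited scale. Under the T cell-anchored scaling their median was 0.58, with 22 of 24 above 0. That scaling also placed 11313 of all 16659 genes tested above 0, with a median of 0.31.

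The oligoadenylate synthetases sense double-stranded RNA and make the messenger that activates RNase L. Their genes lie on chromosome 5 of GRCm38, and all 5 members of this family were above 0 under every scaling tried. Oas2, from 120730333 to 120749853 on the minus strand, had a level of 941 (973 reads) in the Ctrl library and 1900.2 (1671 reads) in the cKO library. This is a log2 fold change of 1.01 (95% interval 0.90 to 1.13), the largest among the members on the deposited scale. Oasl2, which encodes a synthetase-like protein, had levels of 1014 and 1603 and a change of 0.66 (0.54 to 0.78). The remaining family members stayed below 1.5-fold on the deposited scale. Oas1a went from 447 to 653, a change of 0.55 (0.37 to 0.73). Oas3 had levels of 1592 and 2162 and a change of 0.44 (0.35 to 0.54). Oasl1, a synthetase-like gene known to restrain Irf7 translation, had 392 and 501 and a change of 0.36 (0.16 to 0.55). Oas1a shares 57.6% of the 50-base words of its transcripts with Oas1g, so reads could be split between them, and their sum had a change of 0.58 (0.43 to 0.74).

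The Ifit proteins bind foreign RNA ends, and their genes lie together on chromosome 19. The 3 members did not move alike. Ifit3, from 34583531 to 34588731 on the plus strand, had a level of 454 in the Ctrl library and 780.1 in the cKO library, a change of 0.78 (0.61 to 0.95). Ifit1 had levels of 505 and 550.4 and a change of 0.12 (-0.06 to 0.31). Ifit2 had 1307 and 1297 and a change of -0.01 (-0.13 to 0.10), or 0.34 under the T cell-anchored scaling. The interval of Ifit3 did not overlap those of Ifit1 and Ifit2. It did overlap those of Ifit3b, at 1.05 (0.81 to 1.29), and Ifit1bl2, at 0.72 (0.41 to 1.04), which lie between Ifit3 and Ifit1, while Ifit1bl1 in the same stretch had -0.05 (-0.19 to 0.08), or 0.30 under the T cell-anchored scaling. Ifit3 shares 51.2% of its transcript words with Ifit3b, which had 230 and 405 reads, and the sum of both had a change of 0.87 (0.74 to 1.01).

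Rsad2 encodes viperin, which makes a chain-terminating nucleotide, and Cmpk2 next to it on chromosome 12 encodes the kinase that supplies its substrate. Rsad2, from 26442746 to 26456452 on the minus strand, had a level of 425 in the Ctrl library and 827 in the cKO library and a change of 0.96 (0.79 to 1.14). Cmpk2 had levels of 860.0 and 798 and a change of -0.11 (-0.25 to 0.04), or 0.25 under the T cell-anchored scaling. The intervals of these neighbours did not overlap. Mx1 and Mx2, dynamin-like GTPases on chromosome 16 that are known to carry defective alleles in common laboratory strains, had levels of 425 and 715 and of 136 and 200.1. Their changes were 0.75 (0.57 to 0.93) for Mx1, which was called higher, and 0.55 (0.23 to 0.88) for Mx2, which was not. They share 3.86% of the words of Mx1.

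Samhd1, which depletes the nucleotide pool that retroviruses need, was the most abundant member by reads, with 13254 in the Ctrl library and 16781 in the cKO library. Its levels of 12822 and 19083 gave a change of 0.57 (0.54 to 0.61), just below the 1.5-fold threshold. Trim30a had 1996 and 2379 and a change of 0.25 (0.16 to 0.34). Adar, which edits adenosine to inosine in double-stranded RNA, had 4604 and 5257 and a change of 0.19 (0.13 to 0.25). For Eif2ak2, the kinase PKR that halts translation, the levels were 1647 and 1701 and the change 0.05 (-0.05 to 0.15). Thus these abundant antiviral genes had values between 0.05 and 0.57.

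On the other side of 0 lay antiviral genes that are no less typical of the type I response. Isg20, a 3' to 5' exonuclease gene on chromosome 7 from 78913424 to 78920396, had a level of 770.0 (796 reads) in the Ctrl library and 489 (430 reads) in the cKO library. Its change of -0.65 (-0.83 to -0.48) was the lowest among the members, and it was -0.30 under the T cell-anchored scaling. Ifi27l2a, a small mitochondrial protein gene on chromosome 12, had levels of 938 and 708 and a change of -0.40 (-0.55 to -0.26). Rtp4, a chaperone of opioid and taste receptors, had 679 and 567 and a change of -0.26 (-0.43 to -0.09), or 0.09 under the T cell-anchored scaling. Isg15, the ubiquitin-like modifier on chromosome 4, had 243 and 207 and a change of -0.23 (-0.51 to 0.05), which counting error alone could span. Of these 4 genes Isg20 and Ifi27l2a remained below 0 under every scaling tried, and Rtp4 and Isg15 did not.

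The other antiviral genes had intervals that included 0. Bst2, the tether of budding virions and also a marker of plasmacytoid dendritic cells, had levels of 329.9 and 327.5 and a change of -0.01 (-0.24 to 0.22). Ifi35 had 639 and 637 and Xaf1, a partner of the apoptosis inhibitor XIAP, 316 and 321. Ifi44, the lowest member, had 83 and 89 reads and a change of 0.33 (-0.11 to 0.78), a change that was not detectable at this depth.

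Among the sensors, Dhx58, which encodes the RIG-I-like receptor LGP2, had a level of 427 in the Ctrl library and 718 in the cKO library. Its change was 0.75 (0.57 to 0.93), and it was called higher. Ifih1, which encodes the related receptor MDA5, had 1209 and 1026 and a change of -0.24 (-0.36 to -0.11), or 0.12 under the T cell-anchored scaling. These intervals lay apart on the deposited scale. Zbp1, a sensor of left-handed nucleic acid that can start necroptosis, had 1565 and 1783 and a change of 0.19 (0.09 to 0.29).

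None of the 7 regulators reached 1.5-fold on the deposited scale, and their median was 0.07. Among genes in the level range of the members 12.1% were called higher and 8.96% lower, and 7 genes are few beside such shares. Irf7, the factor that amplifies type I interferon, had levels of 1399 and 1601 and a change of 0.19 (0.09 to 0.30). Irf9, the DNA-binding part of the type I complex, had 2369 and 2230.0 and a change of -0.09 (-0.17 to -0.0011), or 0.27 under the T cell-anchored scaling. Irf1, a transcription factor induced early by interferon-gamma, had 3466 and 3578 and a change of 0.05 (-0.02 to 0.12). Usp18, which removes ISG15 and restrains the IFNAR receptor, had 701 and 663 and a change of -0.08 (-0.24 to 0.08). Of these 4 genes only Irf7 had an interval wholly above 0. Parp9 and Dtx3l, which act as a pair, had 1857 and 1943 and 3385 and 4016, with changes of 0.07 (-0.03 to 0.16) and 0.25 (0.18 to 0.31). Parp14, a mono-ADP-ribosyltransferase, had 6246 and 6719 and a change of 0.11 (0.05 to 0.16).

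The 10 GTPases had a median log2 fold change of -0.16 on the deposited scale, and none was called in either direction. Of all genes tested 17.2% were called higher and 24.2% lower, and of genes in the level range of the members 12.1% and 8.96%. The absence of calls among only 10 genes therefore says little about the GTPases. For 3 of the GTPases the counting interval lay above 0, for 6 below 0, and for 1 it included 0. Under the T cell-anchored scaling the median of the GTPases was 0.19, so its sign depends on the scaling. Its size on the deposited scale depends on Iigp1, Tgtp1 and Ifi47, since without them the median of the remaining 7 was -0.03. The Gbp and Irg members, a division by gene family that was made after the values were seen, did not overlap within the 10. The 4 Gbp genes ranged from -0.03 to 0.52, and the 6 Irg genes from -0.47 to -0.14. Beyond the members the families did overlap, since Gbp6 had -0.25, Gbp8 -0.16 and Gbp10 -0.50, and Gm12250, an Irg gene, had -0.03.

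The Gbp members lie in clusters on chromosomes 3 and 5. Gbp2, on chromosome 3 from 142620602 to 142638008, had a level of 1111 in the Ctrl library and 1591 in the cKO library and a change of 0.52 (0.40 to 0.63). Gbp3, on the same chromosome, had 848 and 1142 and a change of 0.43 (0.30 to 0.56). Gbp7, between the Gbp5 and Gbp3 genes, had 2711 and 2875 and a change of 0.08 (0.01 to 0.16). The interval of Gbp7 lay apart from those of Gbp2 and Gbp3, which overlapped each other. Gbp4, on chromosome 5, had 3261 and 3191 and a change of -0.03 (-0.10 to 0.04). Its annotated span overlaps those of Gbp8 and Gbp9 on the same strand, so reads between them may be divided uncertainly.

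All 6 Irg members were below 0 on the deposited scale, and each interval lay below 0. Under the T cell-anchored scaling, 3 of them were above 0 and 3 below, with a median of -0.01. Iigp1, which encodes IRGA6, had levels of 643 and 464 and a change of -0.47 (-0.65 to -0.29). Ifi47, on chromosome 11 from 49076587 to 49096974, had 1670 and 1209.9 and a change of -0.46 (-0.58 to -0.35). Tgtp1, from 48985327 to 48994172 on the minus strand of that chromosome, had 1913 and 1399 and a change of -0.45 (-0.56 to -0.35). These 3 effector GTPases had the lowest values of the group and were the ones still below 0 under the T cell-anchored scaling. Tgtp1 shares 79.4% of its transcript words with Tgtp2, and the sum of both had a change of -0.34 (-0.41 to -0.27).

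The regulatory GTPases of the family, which hold the effectors inactive on the membranes of the cell, were nearer to 0. Igtp, also known as Irgm3, lies on chromosome 11 from 58199556 to 58207591 and had a level of 2146 in the Ctrl library and 1771 in the cKO library, a change of -0.28 (-0.37 to -0.18). Irgm1 had 1811 and 1592 and a change of -0.19 (-0.29 to -0.09). Irgm2 had 1831 and 1659 and a change of -0.14 (-0.24 to -0.04). Under the T cell-anchored scaling these values were 0.08, 0.17 and 0.21. Igtp overlaps the annotated span of Irgm2 on the same strand and shares 11.8% of its transcript words with it, so reads between them may be divided uncertainly.

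**Figure D3:**
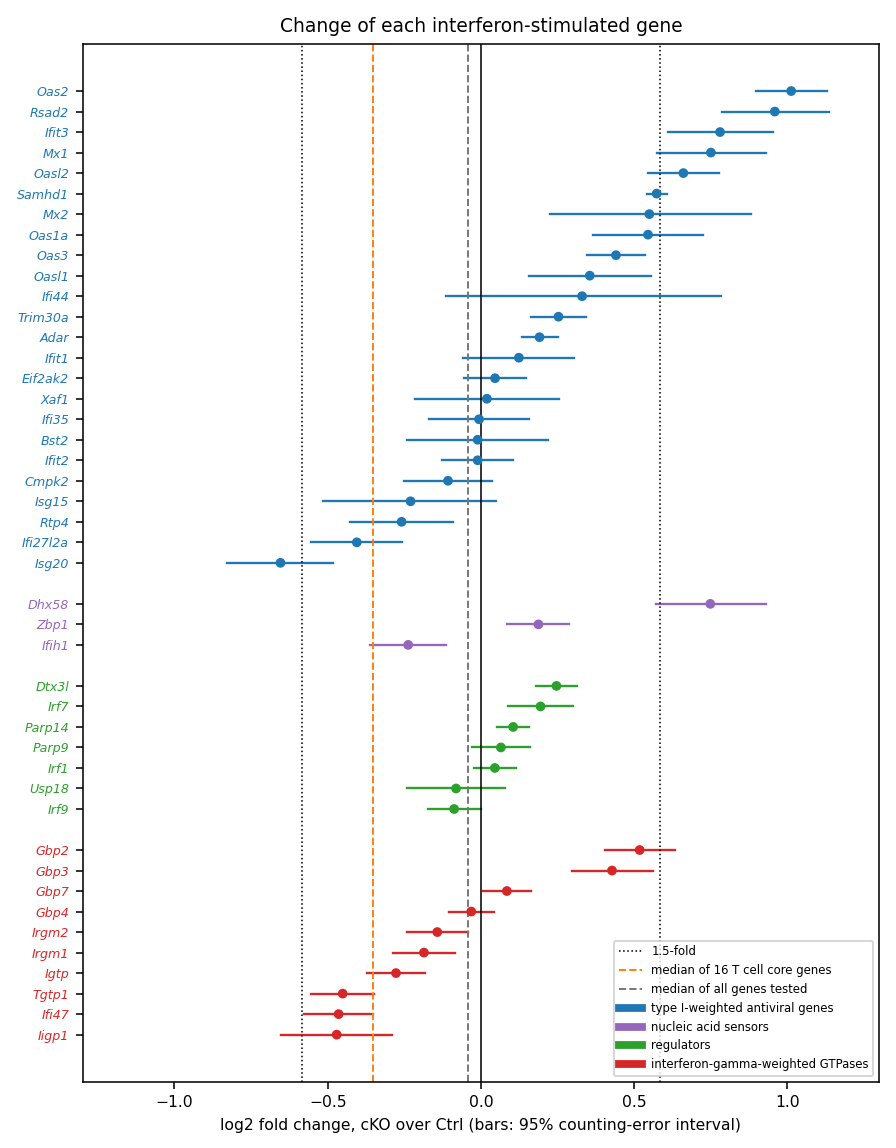
Log2 fold change of each member, cKO over Ctrl, with its 95% counting-error interval, grouped by role; dotted lines mark 1.5-fold and dashed lines the medians of the T cell core genes (-0.35) and of all genes tested (-0.04). The antiviral genes spread from -0.65 to 1.01, and the 6 Irg genes lie between -0.47 and -0.14, around the T cell core line, where 3 of the 6 change sign under the T cell-anchored scaling.

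The median of the GTPases minus that of the antiviral genes was -0.39 on the log2 scale, and it does not depend on the scaling, which acts on both groups alike. With the 7 GTPases of the Gbp, Irgm and Igtp kinds alone it was -0.25. The groups overlapped, with 8 antiviral genes above the highest GTPase and 1, Isg20, below the lowest. There is no replicate with which to test this difference. Per exon length, the GTPases had a median of 23.6 RPKM (reads per kilobase of exon, relative to the library total) in the Ctrl library and 21.3 in the cKO library, and the antiviral genes 12.7 and 13.9. On this same scale the highest members were Ifi27l2a, at 104 and 73.4, and Samhd1, at 71.6 and 100.1, and the lowest was Ifi44, at 0.669 and 0.792.

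Members with and without an ISRE core lay on both sides of 0. The 17 members with the core had a median change of 0.08 and a range of -0.45 to 0.96, and the 15 without it a median of 0.05 and a range of -0.65 to 0.66. For the GAS core, the 13 members with it had a median of -0.0059 and a range of -0.65 to 0.57, and those without it a median of 0.25 and a range of -0.46 to 0.96. The difference was not tested. Igtp, Irgm2 and Tgtp1, with the paired cores printed above, had values of -0.28, -0.14 and -0.45, while Gbp2 and Gbp3, with an ISRE core alone, had 0.52 and 0.43. Irgm1, also with an ISRE core alone, had -0.19. The other members with both cores, at other spacings, were Gbp7 (0.08), Oas1a (0.55), Bst2 (-0.01) and Eif2ak2 (0.05).

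Upstream of the members, transcripts of the interferons themselves were rare. The 15 alpha and beta interferon genes together had 39 reads in the Ctrl library, spread over 9 genes, and 12 in the cKO library, all of them on Ifna2. Ifnb1 had 8 and 0 reads and Ifna14 had 11 and 0. Zeros were frequent in the cKO library, where 6375 genes were at 0 against 4751 in the Ctrl library, so the size of these differences cannot be read from so few reads. Ifng had 55 and 53 reads and a change of 0.18 (-0.39 to 0.75), which was not detectable at this depth.

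Of the 16 receptor and signalling genes, 2 were called higher and none lower on the deposited scale, which is 12.5% of them, against 17.2% and 24.2% of all genes. Ifngr2, the signalling subunit of the interferon-gamma receptor, had levels of 1035 and 1599 and a change of 0.63 (0.51 to 0.74), and Ifngr1 had 4129 and 5572 and a change of 0.43 (0.37 to 0.49). The other gene called higher was Socs3, a feedback inhibitor, at 0.76. By contrast the type I receptor genes Ifnar1 and Ifnar2 had values of 0.16 and 0.05. Stat2, a part of the type I complex, had 1549 and 2109 and a change of 0.45 (0.35 to 0.54). Jak1, Jak2 and Tyk2 had values of 0.21, 0.32 and 0.08. Receptor and kinase genes of both pathways were therefore present in both libraries. The changes were higher for the subunits of the interferon-gamma receptor than for those of the type I receptor. Under the T cell-anchored scaling they were 0.79 for Ifngr1, 0.98 for Ifngr2, 0.51 for Ifnar1 and 0.40 for Ifnar2. Levels did not follow that order. Ifngr2 lay below Ifnar1 (2831 and 3160) and Ifnar2 (1849 and 1909) in both libraries, while Ifngr1 lay above both.

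Of the 14 genes that induce interferon, 5 were called higher and none lower, which is 35.7% of them, against 17.2% higher and 24.2% lower over all genes. Tlr9 and Tlr7, endosomal sensors of DNA and RNA, had values of 1.73 (1.58 to 1.90) and 1.68 (1.51 to 1.86), from 425 to 1205 and from 357 to 978 reads. Irf5 had 1.58, Irf8 1.01 and Tmem173, which encodes STING, 0.71. Tlr9, Tlr7, Irf5 and Irf8 are known to be expressed in B cells, macrophages or dendritic cells, and the part of such cells in these values was not tested. The lowest value was that of Ikbke, at -0.43, or -0.08 under the T cell-anchored scaling.

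Of a list of 72 further interferon-induced genes, 70 were tested, and 18 were called higher and 2 lower on the deposited scale, against 17.2% and 24.2% of all genes and 12.1% and 8.96% of genes in the level range of the members. Their median was 0.31. The highest values were those of Ciita, the master factor of MHC class II, at 1.59 (1.50 to 1.67), Ifi207 at 1.47 and Ifi204 at 1.40. Under the T cell-anchored scaling they were 1.94, 1.82 and 1.75, and the part of other cell types in them was not tested. The lowest values were those of the chemokine gene Cxcl10, with 61 and 24 reads, at -1.08 (-1.86 to -0.41), Phf11d at -0.59 and Gbp10 at -0.50, or -0.74, -0.24 and -0.15 under the T cell-anchored scaling. Guanylate-binding protein genes again lay on both sides of 0, with Gbp5 at 0.89, Gbp9 at 0.79 and Gbp11 at 0.63, and with Gbp6 at -0.25 (-0.37 to -0.13) and Gbp8 at -0.16 (-0.28 to -0.04) besides Gbp10. Gbp6 had 0.10 and Gbp8 had 0.19 under the T cell-anchored scaling.

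**Figure D4:**
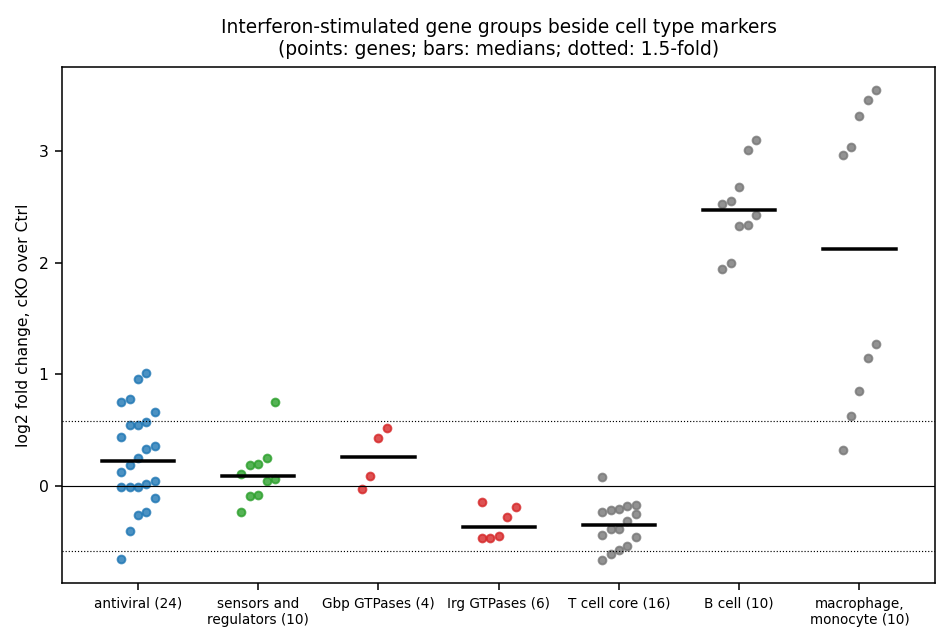
Log2 fold change of each gene by group, with a bar at the median of the group and dotted lines at 1.5-fold. The Irg GTPases (median -0.36) lie at the height of the T cell core genes (-0.35), the antiviral genes (0.22) and Gbp GTPases (0.26) lie above them, and the B cell (2.47) and macrophage and monocyte (2.12) medians lie above every member. Under the T cell-anchored scaling the Irg median is -0.01.

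Whole reads could be recovered for 100% of the deposited values, within 0.01 read, so tests on the reads were added after the data were seen. They compare 2 libraries and not the genotypes, and they used genes with at least 10 reads in all and an adjusted p threshold of 0.1 beside the 1.5-fold threshold. A two-sided exact binomial test with Benjamini-Hochberg adjustment called 6 members higher and 1 lower, and over all genes it called 14.8% of 14863 genes higher and 17.6% lower. The exact test of edgeR, run with a biological variation between replicates assumed at 0.2, called 0 members, against 16.3% of genes in either direction. The interval itself lay wholly past 1.5-fold for 3 members, namely Oas2, Rsad2 and Ifit3.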

How the data were processed

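Total RNA of 1 Ctrl and 1 cKO library was enriched for mRNA and sequenced on an Illumina platform. Alignment by the authors was to mm10 with TopHat, while the submitters' processing notes list bcl2fastq 2.0, STAR, StringTie and DESeq2 without their roles; the annotation, the counting program and its strand setting are not given in the sources used here. The deposited values are a signal, the read count of a gene divided by 1 size factor per library, since all values of a library are multiples of a single step, 0.967 for Ctrl and 1.14 for cKO. Dividing by these steps recovered whole reads, 20239325 and 18327535 in all. The floor of 3 reads corresponds to levels of 2.90 and 3.41.

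Changes were computed over genes whose mean level reached 1, as log2 values after a pseudocount of 1, so they understate the change of low genes. The threshold of 1.5-fold is that of the study, which also gives a second cutoff of 0.1 without naming its quantity. The calls here rest on the fold alone, so they are not calls by the rule of the study. Intervals are exact Clopper-Pearson intervals of the cKO share of the reads of a gene, as a ratio, and floors and intervals cover counting error only. Positions and exon lengths are from GENCODE vM21 on GRCm38, the same assembly as mm10, and all 44 members matched a single gene. Transcripts were compared by words of 50 bases, and genes sharing at least 20% of a member's words were summed with it as an alternative. The tools were edgeR 4.0.16 in R 4.3.3, and matplotlib 3.10.9, scipy 1.17.1, pandas 2.3.3 and numpy 2.4.6 in Python 3.11.15. The counting interval and the tests on the reads were checked on simulated reads that held counting error alone. The genes named are all members, the genes of the pathway, paralog and marker lists, and, of the further interferon-induced genes, the 3 highest and 3 lowest whose mean level reached 10. Gene lists came from textbook knowledge, and the members and lists were chosen with earlier results of these data known. Some genes of the lists are not reported here by name. The alternatives were other scalings, pseudocounts, filters, thresholds and group definitions.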

Additional observations from a re-analysis of the deposited data

How the results depend on the processing

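The count of members called and the medians were recomputed under other settings, and a median was taken as moved when it left the counting interval averaged over its middle genes. The TMM and median-of-ratios scalings, a pseudocount of 0.1 or 5, no filter, a minimum mean level of 10, only genes above 0 in both libraries, and sums with paralogs that share at least 20% of transcript words moved none of the 6 results. Under the T cell-anchored scaling, 16 members were higher and 0 lower, and the medians were 0.43 for all members, 0.58 for the antiviral genes and 0.19 for the GTPases, which reverses the direction of the GTPases on the deposited scale. That setting multiplied the levels of the cKO library by a common factor, and genes at 0 there did not move. With a threshold of 2-fold, 1 member, Oas2, was higher and 0 were lower, against 10.3% and 18.1% of all genes. In the exact test of edgeR at an assumed variation of 0.2, chosen after seeing the data, 0 were higher and 0 lower, and 931 of the 14863 genes with enough reads were higher and 1488 lower, where the fold threshold alone gave 2864 and 4028 of 16659. With only the 7 GTPases of the Gbp, Irgm and Igtp kinds, their median was -0.031, which counts as moved. The cause of the dependence on scaling was not tested. No paired analysis was possible because only 1 library of each genotype was analysed here. With 1 library per genotype the depth limits only the counting error, and the spread between animals is unknown.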

Other observations

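Other members of the interferon-induced clusters that were not described above had these values. On chromosome 7, beside Trim30a, the antiviral tripartite-motif genes Trim30d, Trim12c, Trim34a and Trim5 had log2 fold changes of 1.25 (95% interval 1.12 to 1.39), 0.81, 0.72 and 0.60, and Trim30b had 0.90, whereas Trim30a had 0.25. Trim30d had 677 reads in the Ctrl library and 1372 in the cKO library. It shares 5.98% of the transcript words of Trim30a.

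In the chromosome 1 cluster of DNA-binding interferon-inducible genes, Ifi211 had a log2 fold change of 0.83, Ifi209 of 0.61, Mndal of 0.42, Ifi205 of 0.32, Ifi203 of 0.30 and Ifi213 of 0.06, and Ifi207 and Ifi204 are given above. The growth-regulatory Schlafen genes had values of the following sizes, with Slfn2 at 0.28, Slfn8 at 0.18, Slfn1 at 0.13 and Slfn5 at 0.10. Under the T cell-anchored scaling all of these values were higher by about 0.35. None of them has a replicate check, and what sets them apart was not tested.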
